A study of Eohaustorius estuarius with 16 samples.

Results

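On 3 of 16 arrays of whole amphipods the transcript fragment contig_3644 gave a signal far above its signal on the other 13. These 3 arrays, called the high arrays, were cyfluthrin replicate 8 and control replicates 3 and 8, and the other 13, called the low arrays, were cyfluthrin replicates 1 to 7 and control replicates 1, 2, 4, 5, 6 and 7. The arrays were chosen by a measured value, the log2 processed signal of contig_3644, averaged over its 2 spots, minus the log2 of the array's 75th percentile. Arrays above 4 were high, and all others lay below 2. The classes thus come from measured values and cut across treatment, so everything compared between them describes how these 3 arrays stood apart from the 13, and is not a test of a treatment or of a labelled condition.

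Each array carried Cy3-labelled total RNA from whole bodies of Eohaustorius estuarius, a burrowing amphipod crustacean of estuarine sand that is used in sediment toxicity tests. The cyfluthrin animals spent 10 days in sediment with a nominal 1.6 µg/kg of cyfluthrin, a pyrethroid insecticide, and the control animals spent 10 days in sediment that had received solvent only. There were 8 cyfluthrin and 8 control arrays, all labelled and scanned by laboratory B from extracts prepared in one laboratory. The labels do not say how many animals an extract held, nor give the sex, size or moult stage of any animal, so p-values measure only the spread between these samples.

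A contig here is a fragment assembled from transcript reads, known by number only. The files pair no contig with a gene name, a protein or a sequence, so no role can be given to any of them, and several contigs may be pieces of a single transcript or of close gene copies. Whole-body RNA mixes all tissues of the animal. Fewer cells of a type and less RNA per cell cannot be told apart in such extracts. Crustacean tissues such as the cuticle-forming epidermis, the digestive gland and the gonad each make large amounts of a few transcripts, and their activity follows the moult and reproductive cycles; this is general background, and no marker of any tissue could be looked up here.

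Across the 6 array-wide measures examined, the high arrays did not stand apart beyond the spread between arrays. Raw brightness, taken as each array's 75th percentile of processed signal before scaling, ran from 467 to 768 on the high arrays and from 463 to 796 on the low arrays. The share of contig spots well above background ran from 82.5% to 95.4% on the high arrays and from 80.6% to 93.7% on the low arrays. With class permuted within treatment, the unadjusted 2-sided p of the 6 measures ran from 0.138 to 0.531 (exact permutation over 224 choices, smallest possible p 0.0045; adjusted p = 0.531 for every measure). The high arrays did hold an extreme value of 4 of these measures. Control replicate 3 had the lowest spike-in level of all arrays, 0.20 log2 units above its 75th percentile. Cyfluthrin replicate 8 had the lowest median SD between the 2 spots of a contig, 0.0534 log2 units, the highest share of spots above background and the highest 10th percentile, at -4.16 log2 units relative to the 75th percentile, against -6.63 to -4.46 on the low arrays.

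On the high arrays contig_3644 lay at 6.63 in cyfluthrin replicate 8, 5.86 in control replicate 3 and 6.41 in control replicate 8, in log2 units relative to the 75th percentile. On the low arrays it had a lowest, median and highest value of -3.35, -2.54 and 1.16 in the 7 cyfluthrin samples and of -3.61, -0.91 and 1.53 in the 6 control samples. The array just inside the threshold was control replicate 3, and the array just outside it was control replicate 2, 4.33 log2 units lower, a 20.1-fold gap. The low arrays were not uniform, since their own values spanned 5.14 log2 units, and the spots of contig_3644 were above background on all 13 of them. The 2 spots of an array differed by at most 0.45 log2 units, far less than arrays differed from each other.

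High and low arrays were then compared across all contigs, with treatment as a covariate, which asks which other transcripts stood with contig_3644 on the same arrays. Besides contig_3644, 8069 contigs were tested, those above background on at least 3 arrays. Of these, 16 were higher on the high arrays and 0 were lower (limma, adjusted p under 0.05), which is 0.198% of the contigs tested. Without adjustment, 176 contigs were higher and 181 lower with p under 0.05, 2.18% and 2.24%, and limma with trend and robust variance called the same numbers after adjustment, 16 and 0. The differences that passed were large: the log2 difference ran from 1.29 to 8.83 with a median of 3.29, and 14 of the 16 were at least 4-fold. Over the other 8053 contigs the median was 0.06 and the range -1.80 to 5.48.

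**Figure D1:**
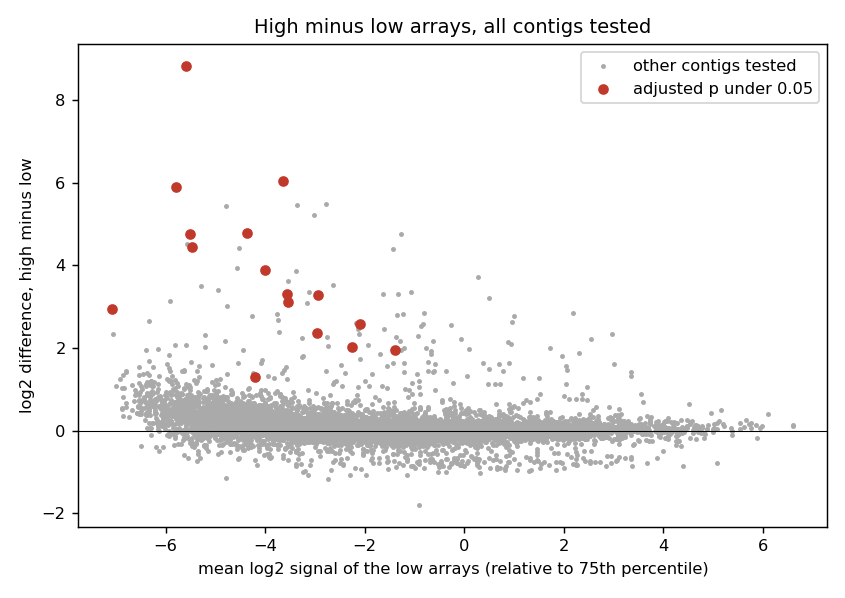
Log2 difference of high minus low arrays, with treatment as a covariate, against the mean log2 signal of the low arrays for the 8069 contigs tested; red points are the 16 contigs with limma adjusted p under 0.05. The red points all lie above 0 and at or left of the middle of the signal range, and 0 contigs lie 4-fold or more below the line at 0.

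All 3 high arrays lay above all 13 low arrays for 26 contigs, 0.322% of those tested, and below all 13 for 7 contigs, 0.0868%. Of the 26, 19 were also at least 4-fold higher (0.235%), and of the 7, 0 were at least 4-fold lower. Of the 26, 11 did not pass the adjusted threshold. Without regard to overlap, 75 contigs averaged at least 4-fold higher on the high arrays (0.929%) and 0 at least 4-fold lower.

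The contig whose pattern was most like that of contig_3644 over the 16 arrays was contig_2830, with a Pearson correlation of 0.976 and Spearman's rho of 0.888. It lay at 3.55 in cyfluthrin replicate 8, 3.30 in control replicate 3 and 3.26 in control replicate 8. On the low arrays its lowest, median and highest values were -7.18, -6.56 and -2.71 in the 7 cyfluthrin samples and -7.38, -5.45 and -1.25 in the 6 control samples. The high arrays agreed within 0.29 log2 units, and the classes did not overlap. The log2 difference was 8.83 (SE 1.08, limma adjusted p = 0.00095, n = 3 high and 13 low), the greatest of all contigs. Only 5 low arrays had contig_2830 well above background, so the size of the difference rests on low arrays near the background. After normexp background correction, another way of removing background signal, the difference was 5.82. That setting also added an offset of 50 to the signal of every spot, and the parts of offset and background in the change were not tested. The correlation over all arrays is largely that between the classes, and it was chosen as the highest, so no p is given.

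The next greatest rise was that of contig_1178, which had 1 spot per array. It lay at 2.17 in cyfluthrin replicate 8, 4.64 in control replicate 3 and 1.65 in control replicate 8. Its lowest, median and highest values on the low arrays were -5.36, -5.13 and -2.93 in the cyfluthrin samples and -5.48, -1.88 and 0.20 in the control samples. The classes did not overlap, but control replicate 2, the highest low array, lay only 1.45 log2 units below the lowest high array. The log2 difference was 6.04 (SE 1.02, limma adjusted p = 0.018), and 4.43 after normexp. Its spot was well above background on 9 of the 13 low arrays. The call was lost without control replicate 3 (log2 difference 5.47, limma adjusted p = 0.083) and without cyfluthrin replicate 8 (5.57, limma adjusted p = 0.391). With array weights estimated by limma, the calls of contig_1178 (5.11, limma adjusted p = 0.157) and contig_2830 (7.54, limma adjusted p = 0.0526) were lost as well.

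For contig_6227, also with 1 spot per array, the high arrays gave 0.72 in cyfluthrin replicate 8, 0.95 in control replicate 3 and -0.29 in control replicate 8. The low arrays had a lowest, median and highest value of -5.80, -4.50 and -3.16 in the cyfluthrin samples and of -5.22, -4.21 and -2.96 in the control samples. Every high array lay at least 2.67 log2 units above every low array. The log2 difference was 4.77 (SE 0.52, limma adjusted p = 0.00058), and 2.88 after normexp. Its spot was well above background on 10 of the 13 low arrays. The call of contig_6227 kept an adjusted p under 0.05 with any 1 array left out. On the control arrays alone it was lost (log2 difference 4.50, limma adjusted p = 0.138).

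**Figure D2:**
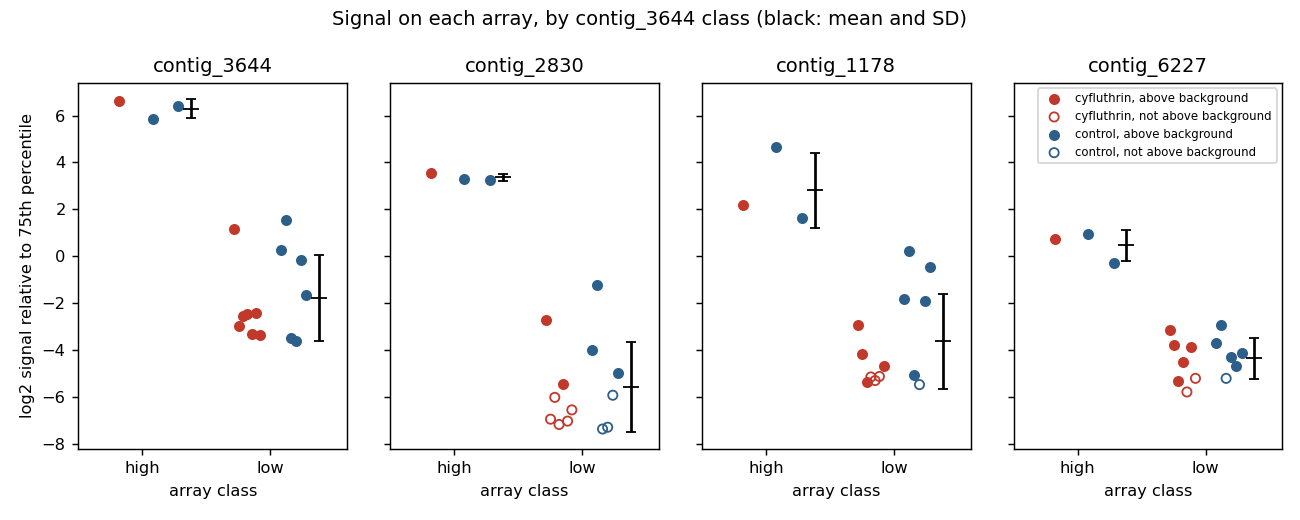
Log2 signal relative to the 75th percentile on each array for contig_3644, contig_2830, contig_1178 and contig_6227, with the 3 high arrays left of the 13 low arrays; red points are cyfluthrin and blue points control samples, open points are not well above background, and black marks give the mean and SD of a class. For contig_2830 the high arrays lie between 3.26 and 3.55 and the low arrays between -7.38 and -1.25.

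The 16 contigs were dim on the low arrays, and most were brighter than the typical contig on the high ones. Their mean signal on the low arrays ran from -7.07 to -1.39 with a median of -3.82, and on the high arrays from -4.09 to 3.37 with a median of -0.12. Over the other 8053 contigs tested the same medians were -1.74 and -1.71. All 16 were well above background on the 3 high arrays. On the low arrays 8 were above background on all 13, 3 on 7 to 12 and 5 on fewer than 7. Because a contig needed only 3 arrays above background to be tested, the last 5 entered through few arrays. Of these, contig_73 was above background on 1 low array, so it passed the filter only through the high arrays. A filter of 8 arrays kept 14 of the 16 contigs, all called. Of the dimmest 2690 contigs 10 were called, of the middle 2689 6, and of the brightest 2690 0.

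The high arrays were not alike for all 16 contigs. They lay within 2-fold of each other for 6 contigs and spread over at least 4-fold for 5, with a median range of 1.19 log2 units. Cyfluthrin replicate 8 was the highest of the 3 for 10 contigs, control replicate 3 for 6 and control replicate 8 for 0. Each high array was set against the mean of the other high arrays. Cyfluthrin replicate 8 was at least 2-fold higher for 2 contigs and lower for 1, with differences from -1.505 to 1.48 log2 units. Control replicate 3 was at least 2-fold higher for 5 and lower for 2, from -2.55 to 3.20. Control replicate 8 was at least 2-fold higher for 1 and lower for 7, from -1.78 to 1.07. Groups of contigs with different orders among the high arrays can be seen in the map of signals by contig and array.

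**Figure D3:**
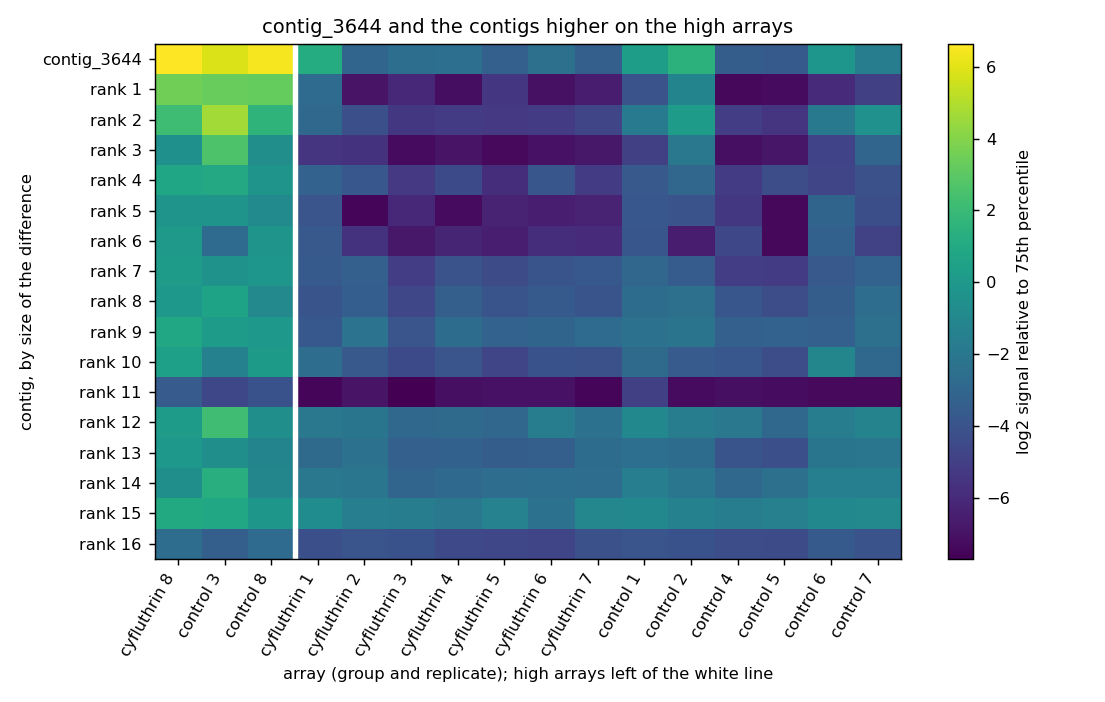
Log2 signal relative to the 75th percentile (colour) of contig_3644 and the 16 contigs called higher on the high arrays, ranked by the size of the difference, on each of the 16 arrays; the 3 high arrays are left of the white line. Control replicate 3 is the brightest high array for 6 of the 16 contigs. Among the low arrays, cyfluthrin replicate 1 and control replicates 1, 2, 6 and 7 each hold the highest value of 1 or more contigs.

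Treatment groups were examined apart, since the high cyfluthrin array and the high control arrays share no sample in their comparisons. Among the control samples alone, with 2 high and 6 low arrays, limma called 0 contigs at an adjusted p under 0.05, and 411 had an unadjusted p under 0.05, 5.09% of those tested. Both high control arrays lay above all 6 low ones with an at least 4-fold mean difference for 19 contigs, 0.235%. In 17 of these 19, 89.5%, cyfluthrin replicate 8 lay above all 7 other cyfluthrin arrays and at least 4-fold above their mean, which held for 338 contigs, 4.19% of all tested. The 17 are 5.03% of the 338 and 0.211% of all tested. They are not the same set as the 16 contigs called over all arrays, of which 12 were among the 17. Cyfluthrin replicate 8 was classed as high by contig_3644 alone. Its other contigs took part in choosing the 19 only by counting toward the filter on arrays above background. The 4.19% is over contigs of all signal levels and was not matched to the level of the 19. The comparison rests on a single high cyfluthrin array, and several of the 19 may be pieces of a single transcript. In the other direction 1 contig, 0.0124%, was at least 4-fold below on both high control arrays without overlap, and 0 on cyfluthrin replicate 8.

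**Figure D4:**
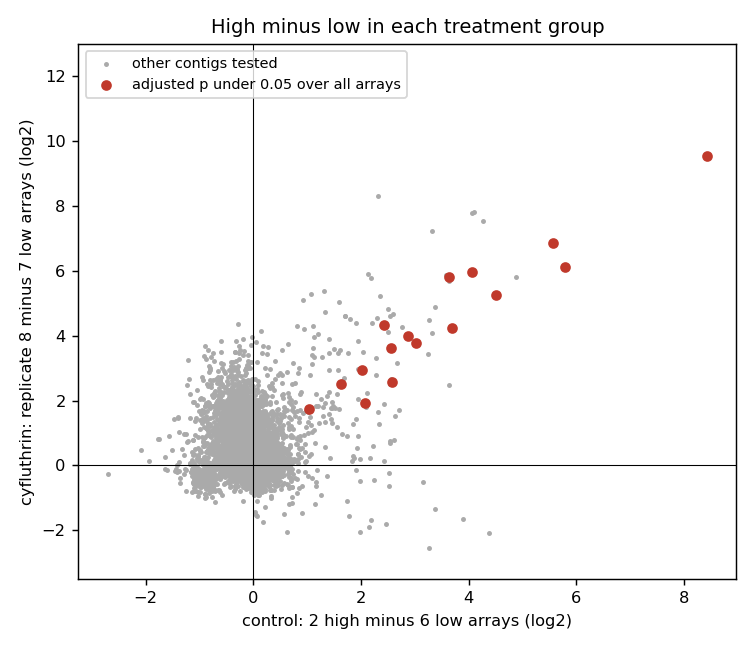
Mean log2 difference of the 2 high from the 6 low control arrays (horizontal) against that of cyfluthrin replicate 8 from the 7 low cyfluthrin arrays (vertical) for the 8069 contigs tested; red points are the 16 contigs called over all arrays. The red points lie between 1.03 and 8.42 on the horizontal and between 1.73 and 9.54 on the vertical axis, while the other contigs spread upwards at all positions near 0 on the horizontal axis.

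The broad rise on cyfluthrin replicate 8 moved with signal level. Its median difference from the low cyfluthrin arrays was 0.83 log2 units over the 2690 dimmest contigs, 0.16 over the middle 2689 and -0.03 over the 2690 brightest. For the high control arrays the same medians were -0.16, -0.06 and 0.03. With the array's 10th percentile as a further covariate, chosen after seeing the data, 13 contigs were higher and 0 lower, 12 of them among the 16, and the log2 differences of contig_2830, contig_1178 and contig_6227 were 8.85, 5.73 and 4.69. Without cyfluthrin replicate 8, 5 contigs were higher, all among the 16, and 1 was lower.

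Counted array by array, the high control samples were not unusual in how many contigs lay far from their group. Relative to the median of the low arrays of the same treatment, 368 contigs were at least 4-fold higher on cyfluthrin replicate 8, 59 on control replicate 3 and 74 on control replicate 8, and on the low arrays 4 to 152, each against the other low arrays of its group. Of the 16 contigs, 14 were at least 4-fold higher on cyfluthrin replicate 8, 13 on control replicate 3 and 11 on control replicate 8, against 0 to 4 on the low arrays. The 4 were on cyfluthrin replicate 1 and the next count, 3, on control replicate 2, the low arrays with the highest contig_3644 in their groups. The median of the 16 did not follow that order in the control group. It lay 0.09 log2 units above the other low arrays on control replicate 2, against 0.62 on control replicate 1 and 0.52 on control replicate 7. On cyfluthrin replicate 1 it lay 0.71 above, the greatest among the low arrays. The 16 were chosen for their difference between the classes, so these counts describe them only.

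**Figure D5:**
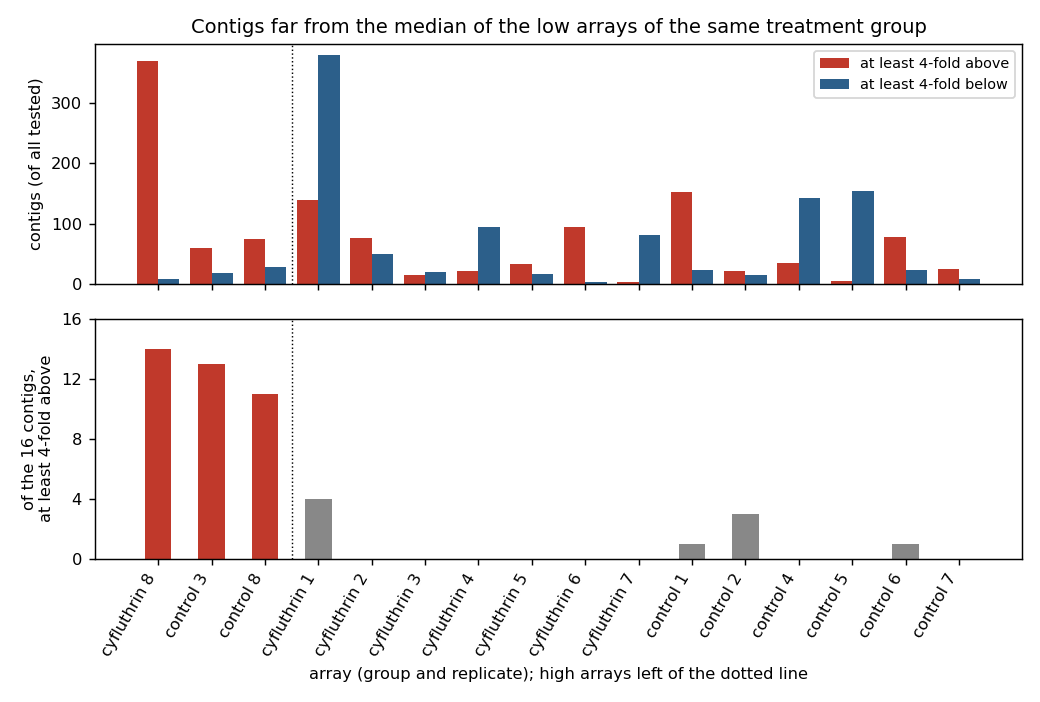
Number of contigs at least 4-fold above or below the median of the low arrays of the same treatment group, for each array, among all contigs tested (top) and, for those above, among the 16 called contigs (bottom); the 3 high arrays are left of the dotted line. Cyfluthrin replicate 8 has 368 contigs above and cyfluthrin replicate 1 has 378 below, whereas 11 to 14 of the 16 contigs are above on the high arrays and 0 to 4 on the low ones.

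The difference between high and low arrays was set against treatment. No interaction of class and treatment passed the threshold: limma called 0 of 8069 contigs at an adjusted p under 0.05, and 831, 10.3%, had an unadjusted p under 0.05. That test rests on a single high cyfluthrin array. For the 16 contigs the high minus low difference had a median of 4.11 in the cyfluthrin group and 2.95 in the control group, and their interaction, cyfluthrin minus control, ran from -0.15 to 2.18. Cyfluthrin replicate 8 also had raised dim signals, and the part of those signals in these values was not tested.

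Treatment itself, with class as a covariate, was compared next: limma put 229 contigs higher (2.84%) and 216 lower (2.68%) on the cyfluthrin arrays at an adjusted p under 0.05, 5.51% of those tested, and 0 of the 16 contigs were among them. Their cyfluthrin minus control differences in that fit ran from -2.03 to 0.04 with a median of -0.42. On the 13 low arrays alone, 112 contigs were higher and 90 lower with cyfluthrin, 2.5% in all, again with 0 of the 16; without adjustment 3 of the 16 had p under 0.05, against 1228 of all contigs tested, 15.2%. All 16 had a negative difference there, from -2.25 to -0.09, while 42.5% of the other contigs had a positive one and their median was -0.05. The direction is a description of contigs that vary together, and the highest low array was a control sample for 15 of the 16.

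Among the 13 low arrays, whose differences from one another the threshold did not use, the 16 contigs followed contig_3644 to different degrees. Their Pearson correlations with it over these arrays were all positive, from 0.139 to 0.880 with a median of 0.601, against a median of -0.083 over the other contigs. Of the 16, 5 were above background on only 1 to 5 of the low arrays. The arrays share scaling and treatment, and the contigs are not independent of each other, so these values are a description. For contig_2830 the correlation was 0.880, and 0.705 without control replicate 2 and cyfluthrin replicate 1, the arrays farthest from the median of contig_3644. For contig_6227 it was 0.717, and 0.441 without the same arrays.

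The closest follower of contig_3644 over the low arrays, contig_6479, did not separate the classes. It had a Pearson correlation of 0.934 and Spearman's rho of 0.945 over 13 arrays. It lay at -2.23 in cyfluthrin replicate 8, -1.58 in control replicate 3 and -1.57 in control replicate 8, inside its range of -2.49 to -0.81 on the low arrays. The log2 difference was 0.02 (SE 0.33, limma adjusted p = 1.0). Of the 26 contigs with a correlation over 0.8 on the low arrays, 3 were higher on the high arrays, 11.5% against 0.198% of all contigs tested, and the median difference of the 26 was 0.25.

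The contigs contig_130 and contig_766, which also split these arrays widely, did not separate the classes. Signals of contig_130 were 4.03, 6.03 and 4.91 in cyfluthrin replicate 8, control replicate 3 and control replicate 8, within the range of -3.60 to 6.96 on the low arrays (log2 difference 2.23, SE 2.45, limma adjusted p = 1.0). Signals of contig_766 were -0.06, 3.16 and 1.08 on the same arrays, within -7.04 to 3.64 on the low arrays (log2 difference 1.93, SE 2.39, limma adjusted p = 1.0). Both have large spreads within the low class, and neither difference exceeded its SE. Over the 13 low arrays contig_130 did follow contig_3644, with a Pearson correlation of 0.727 and Spearman's rho of 0.874. For contig_766 these values were -0.330 and -0.236.

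The arrays lay on 2 slides, with control replicate 3 on slide 1 and both high arrays numbered 8 on slide 2. With slide as a block 12 contigs were higher and 0 lower. Within slide 1, with 1 high and 7 low arrays, 0 were higher and 1 lower, and the lone high array was taken to vary like the others. Within slide 2, with 2 high and 6 low arrays, 10 were higher and 0 lower, 5 of them among the 16. For contig_2830 the log2 difference on slide 1 was 7.51, and on slide 2 it was 9.61. For contig_1178 these differences were 6.88 on slide 1 and 5.74 on slide 2, and for contig_6227 they were 4.91 and 4.88. All 16 contigs had a positive difference on each slide, which their choice on the same arrays favours.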

How the data were processed

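Per the file headers, the 1-colour processed signal deposited by the authors is an intensity after background subtraction and detrending, unscaled between arrays. Agilent Feature Extraction made it, with version 10.7.1.1 named in the headers and version 9.1 in the submitters' processing notes. A further table deposited by the authors holds log2 values; their column medians and their match to quantile-normalized, probe-centred signals (r of 1.00 on every array) were checked, and how they were made is not given in the sources used here. Control spots were left out, outlier spots set aside, the spots of a contig averaged, and the array's 75th percentile subtracted on the log2 scale. Each array had 15208 spots for 8507 contigs. Tested contigs had 50% or more of their spots above background on at least 3 arrays, the size of the smaller class; 433 failed and 4 lacked a value. The number of arrays limits the precision.

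The fit was limma 3.58.1 in R 4.3.3 (lmFit, eBayes, 2-sided, Benjamini-Hochberg over the contigs tested, threshold 0.05). On simulated data with 200 of 8070 contigs changed on the high arrays, it recovered 53.7% of log2 changes of 1, 89.6% of 2 and 97.0% of 4, with 6 false calls, and made 0 calls with none changed. Named were the 2 greatest rises (and falls, of which there were 0) past the threshold without overlap and above background on at least 2 high and 7 low arrays, the closest followers of contig_3644, and the contigs of other groupings. The members and contigs were chosen with earlier results of these data known. Alternatives were other scalings, normexp on the median signal (the columns used have no mean signal), the authors' values, other filters, blocks and variance models, and each array left out; 6 more were added after seeing the data, namely each slide alone, the 10th percentile as a covariate, and 3 settings of the rule that joins the control and cyfluthrin arrays.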

Additional observations from a re-analysis of the deposited data

Results flagged for a closer look

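Dixon's test (95% critical value 0.526 for 8 samples) was run on the highest and lowest array of each treatment group. Of 26 groups checked (6 array-wide measures and 7 contigs, in each treatment), 6 had an array past that value. Chance gives about 1 in 20, but that rate does not hold for contigs chosen by their values on these same arrays. In 4 of them it was cyfluthrin replicate 8, at 6.63 for contig_3644 against -3.35 to 1.16 on the other cyfluthrin arrays, 2.17 for contig_1178 against -5.36 to -2.93, 0.72 for contig_6227 against -5.80 to -3.16, and 3.55 for contig_2830 against -7.18 to -2.71. The array was classed by the first of these values, and the other contigs were named for following it or for differing between the classes, so these gaps are no further evidence. The spike-in level of control replicate 3, a high array, was 0.20 log2 units above its 75th percentile, against 0.93 to 1.15 on the other control arrays. The median SD between the 2 spots of a contig was 0.1004 on cyfluthrin replicate 4, a low array, against 0.0534 to 0.0756 on the other cyfluthrin arrays.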

How the results depend on the processing

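Against 16 contigs higher and 0 lower on the high arrays, the counts moved by over 1.5 times with quantile normalization and with the authors' deposited values (26 higher and 1 lower each), spike-in scaling (31 higher), normexp (4 higher), a filter of all 16 arrays (8 higher), array weights (9 higher and 2 lower), the control arrays alone (0 higher), and, chosen after seeing the data, slide 1 alone (0 higher and 1 lower) and slide 2 alone (10 higher). Spike-in scaling shifted the median of all contigs to 0.42 and normexp to 0.32. All 16 were called again under quantile normalization, spike-in scaling and the authors' values, and 4 under normexp with its offset of 50. With the replicate block 1 contig was higher and 3 were lower, with 0 of the 16 called; for contig_1178, contig_6227 and contig_2830 the adjusted p was 0.241, 0.120 and 0.289. Both arrays numbered 8 were high, so only number 3 separates the classes in that fit. Same-numbered arrays had residual correlations from -0.575 to 0.390, so the numbers were not taken to pair samples. With 1 array left out at a time, 5 to 34 contigs were higher and 0 to 4 lower. Without control replicate 3, 34 were higher, of which only 12 were among the 16. Without cyfluthrin replicate 8, 5 were higher, all among the 16, and 1 was lower. Lower contigs numbered 4 without cyfluthrin replicate 4 and 1 without cyfluthrin replicate 6. Treatment on the 13 low arrays alone gave 112 contigs higher and 90 lower, against 229 and 216. Of the contigs high on both high control arrays, 17 were also high on cyfluthrin replicate 8. With normexp this was 11 of 12, and 0.52% of all contigs tested met the rule on cyfluthrin replicate 8. At 2-fold it was 26 of 36, and 13.6% of all met that rule. In the other direction at 2-fold, 80 contigs were lower on both high control arrays and 12 on cyfluthrin replicate 8, with 0 in common. Both settings were chosen after seeing the data. The causes of these shifts were not tested.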
